A study of Mus musculus with 12 samples.

Results

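Transcripts of 10 subunits of the CCR4-NOT complex were followed from the mouse oocyte to the 2-cell embryo, with and without Pabpn1l. The 10 genes, Cnot1, Cnot2, Cnot3, Cnot4, Cnot6, Cnot6l, Cnot7, Cnot8, Cnot10 and Rqcd1 (the older symbol of Cnot9), were chosen by name among the 11298 complete entries of the deposited table, and all 10 were present. The samples were C57BL/6 germinal vesicle (GV) oocytes, 1-cell embryos and 2-cell embryos, labelled Pabpn1l wild type (WT) or Pabpn1l knockout (KO). Pabpn1l encodes a poly(A)-binding protein that oocytes make. The 12 libraries formed 6 groups of 2, with 10 oocytes or embryos pooled in each Smart-seq2 library and reverse transcription primed with oligo-dT. Oocytes came directly from the animals, whereas embryos had been kept in KSOM culture medium. The labels do not say whether KO is the genotype of the mother or of the embryo, nor whether replicate libraries came from different animals, so a p-value reflects only how far these samples spread, which may be technical. Because each library pools 10 cells or embryos, a change in every one of them and a larger change in a few cannot be told apart. Because priming was on the poly(A) tail, a difference in transcript amount and one in tail length cannot be told apart either. Tail length was not measured.

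CCR4-NOT is the main deadenylase of the cytoplasm: it shortens the poly(A) tail of mRNAs, after which they are usually decapped and degraded or kept silent. CNOT1 is the scaffold, CNOT2 and CNOT3 form the NOT module on it, CNOT9 is a docking surface for proteins that recruit the complex to chosen mRNAs, and CNOT10 binds the scaffold's end together with CNOT11. The catalytic work is done by paralogue pairs of nucleases, CNOT7 or CNOT8 bound directly to CNOT1 and CNOT6 or CNOT6L bound to them, while CNOT4 is a ubiquitin ligase that is only loosely attached in mammals. A fully grown oocyte lives on stored maternal mRNA, much of which is deadenylated and removed during meiotic maturation and after fertilization, and subunits of this complex are themselves made from such stored mRNAs.

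The tail that this complex shortens is also the site at which the libraries were primed, so the annotated 3′ ends of the subunit transcripts are shown. The last 30 bases are given for 4 of them, written 5′ to 3′, with the polyadenylation signal AATAAA in capitals. The sequences are from GENCODE M21 transcripts of the GRCm38 build, matched by symbol, and not from the mm9 build of the deposited table.
Cnot6l: taggcAATAAAtggccattttgcaaccgca
Cnot4: ttaacaatactactAATAAAacatctgatt
Cnot6: ccaaccAATAAAttcaatatctgtttcaaa
Rqcd1: aaAATAAAacatgctgggtttttttgtttt
The signal began 25 bases from the transcript end in Cnot6l, 16 in Cnot4, 24 in Cnot6 and 28 in Rqcd1. A window of 150 bases before the annotated end could be read for 9 of the 10 subunits. AATAAA was found in 7 of these 9, against 67.7% of the 8847 genes of the table with such a window. The motif TTTTAT, a form of the element that CPEB1 binds in oocytes, was found in 2 of 9 (Cnot1 and Cnot3), against 20.1% of genes. TGTANATA, the letters bound by Pumilio proteins, was found in 1 of 9 (Cnot7, where it overlaps the AATAAA), against 6.66%. Only the transcript strand was searched, ATTAAA was found in 1 of 9 (Rqcd1; 24.9% of genes), ATTTA in 2 of 9 (Cnot3 and Cnot6; 30.5%) and TTTTAAT in 0 of 9 (7.77%), and a match is a description of these letters and not a site.

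The library labels fitted the level of Pabpn1l in oocytes and 1-cell embryos. It was at 220.1 and 203.9 FPKM (fragments per kilobase of transcript, scaled to the mapped fragments of the library) in WT GV oocytes and at 7.229 and 4.979 in KO GV oocytes (log2 fold change -4.92 ± 0.27 SE, limma adjusted p = 0.000288). Both genotypes were near 1 FPKM, the lowest value in the table, called the floor below, at the 2-cell stage, where the difference was not called (0.21 ± 0.27, limma adjusted p = 0.987). All 10 of 10 oocyte markers on a list that includes Gdf9 and Bmp15 were above the floor in GV oocytes. Of the other cell types a library could hold, 4 of 10 cumulus and granulosa markers were in the table. Their summed level was 73.3 to 79.9 FPKM in WT and 73.0 to 85.4 FPKM in KO oocytes, most of it from Esr2 and Cyp19a1. In 2-cell embryos it was between 4.14 and 4.65 FPKM, with Fshr, Cyp19a1 and Inha at the floor. Each embryo column of the table carried 1 multiplier. At the 1-cell stage these factors were 0.269 and 0.212 for the WT libraries and 0.432 and 0.552 for the KO libraries. At the 2-cell stage WT had 0.116 and 0.123, while KO had 0.130 and 0.121. The oocyte columns carried a factor of 1, and what the factor was based on is not given in the sources used here. Each comparison of the 10 subunits that includes embryos is therefore given on the deposited FPKM and again on FPKM before the library factor. The latter show a gene's place within its own library.

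In WT GV oocytes the nuclease Cnot7 was the most abundant of the 10 transcripts per length, at 186.3 and 183.8 FPKM, above 94.2% and 94.0% of all genes of its library. Cnot8 (113.3 and 93.81 FPKM) and Cnot6l (90.57 and 111.5 FPKM) followed, and their values overlapped. Cnot2 was at 72.75 and 75.52 FPKM, below both and above the rest. Cnot4 (44.59 and 42.79 FPKM) and Rqcd1 (40.66 and 42.48 FPKM) lay next to each other, the highest Rqcd1 value just below the lowest Cnot4 value. Cnot3 (21.52 and 22.35 FPKM) and Cnot10 (24.35 and 18.21 FPKM) overlapped, and so did Cnot10 and the scaffold Cnot1 (18.86 and 20.0 FPKM). Cnot6 was the lowest, at 7.594 and 11 FPKM. The Cnot7 transcript was thus several times more abundant per length than that of the scaffold it binds, and the 4 nuclease transcripts spanned the whole range of the complex.

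In GV oocytes no subunit transcript passed the test between the genotypes. The 10 transcripts summed to 620.5 and 621.5 FPKM in WT and to 612.8 and 605.2 FPKM in KO oocytes. None of the 10 was called between KO and WT (limma, adjusted p under 0.05; 1.62% of all genes were called), and 0 had an unadjusted p under 0.05. Log2 fold changes ran from -0.24 ± 0.21 (Rqcd1) to 0.23 ± 0.27 (Cnot6), with a median of -0.04 against -0.03 over the 9763 genes above the floor. Cnot7 was at 203.2 and 166.7 FPKM in KO oocytes, on either side of the WT values. The SEs were 0.17 to 0.33 on the log2 scale, and a transcript that was not called is not shown to be equal between the genotypes.

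**Figure D1:**
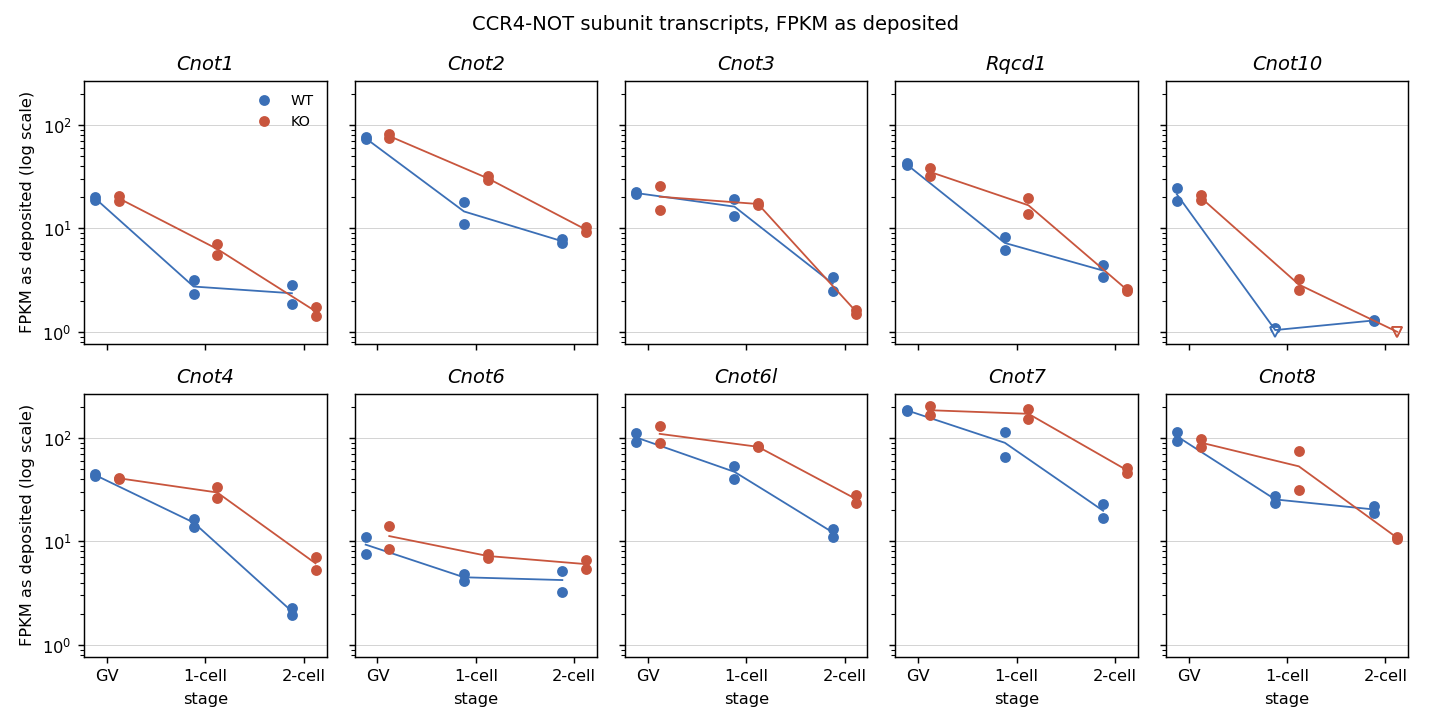
Deposited FPKM (log scale) of each subunit transcript at the GV, 1-cell and 2-cell stages. Each point is 1 library (WT blue, KO red), lines join the means of 2 libraries, and open triangles mark values at the floor of 1 FPKM. At the 2-cell stage Cnot4, Cnot6l and Cnot7 are called higher in KO. Without a call, Cnot2 and Cnot6 are higher in both KO libraries, and Cnot1, Cnot3, Cnot8, Cnot10 and Rqcd1 are lower.

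In 1-cell embryos 8 of the 10 subunit transcripts were higher in KO than in WT on the deposited scale, as were 52.7% of all genes. The scaffold Cnot1 was at 3.177 and 2.299 FPKM in WT and at 5.53 and 7.104 FPKM in KO embryos (log2 fold change 0.97 ± 0.20, limma adjusted p = 0.00381). Rqcd1 had the largest of the 10 differences on the log2(FPKM + 1) scale, from 8.304 and 6.142 FPKM in WT to 13.88 and 19.52 FPKM in KO (1.10 ± 0.21, limma adjusted p = 0.00261). The ratio of means was largest for Cnot10, at 2.75, from 1.08 FPKM and the floor in WT to 2.516 and 3.211 FPKM in KO. Cnot7 was at 113.3 and 66.02 FPKM in WT and at 153.2 and 188.4 FPKM in KO (0.97 ± 0.26, limma adjusted p = 0.0134). Both KO libraries were above both WT libraries for every member except Cnot3, as in 64.3% of all genes. The exceptions to the calls were Cnot3, at 13.13 and 19.29 FPKM in WT and 16.99 and 17.39 FPKM in KO (0.10 ± 0.26), and Cnot6 (0.58 ± 0.27, limma adjusted p = 0.107). The median of the 10 was 0.92, close to the 0.89 of the 6227 genes above the floor. Oocyte marker transcripts were also higher in KO 1-cell embryos: the 10 markers summed to 1958 to 2538 FPKM in WT and to 5866 to 7160 FPKM in KO. On the deposited scale 10 of 10 were called higher (52.7% of all genes). Before the library factor 6 of 10 were, where 10.9% of all genes were called in either direction. The part that these higher oocyte markers play in the subunit levels was not tested.

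Before the library factor, 0 of the 10 were called at the 1-cell stage in either direction (10.9% of all genes were), and 1, Cnot3, had an unadjusted p under 0.05. The median of the 10 was -0.06 against 0.01 over genes above the floor. On this scale Cnot4 was at 61.39 and 65.37 FPKM in WT and at 60.54 and 60.17 FPKM in KO, and Cnot2 was at 67.12 and 52.0 FPKM against 67.18 and 57.89 FPKM. Cnot3, a subunit of the NOT module, had the lowest value (48.74 and 90.83 FPKM in WT, 39.31 and 31.52 FPKM in KO; -0.90 ± 0.31, limma adjusted p = 0.104). The deposited higher levels of Cnot4, Cnot6l, Cnot7 and Cnot8 in KO thus turned to values between -0.21 and -0.06 when the factor was removed. On the deposited scale the calls of Cnot6l and Cnot7 were lost without KO replicate 2 (adjusted p = 0.0598 and 0.0934) or without WT replicate 2 (0.105 and 0.0945), with limma. The Cnot8 call was lost without KO replicate 2 (0.30, limma adjusted p = 0.317), WT replicate 1 (0.0826) or WT replicate 2 (0.188). With only the 4 libraries of this stage in the limma fit 0 of 10 were called, and 7 of 10 had an unadjusted p under 0.05. The share of all genes called in that fit is not given here, so the 0 of 10 cannot be set beside it.

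**Figure D2:**
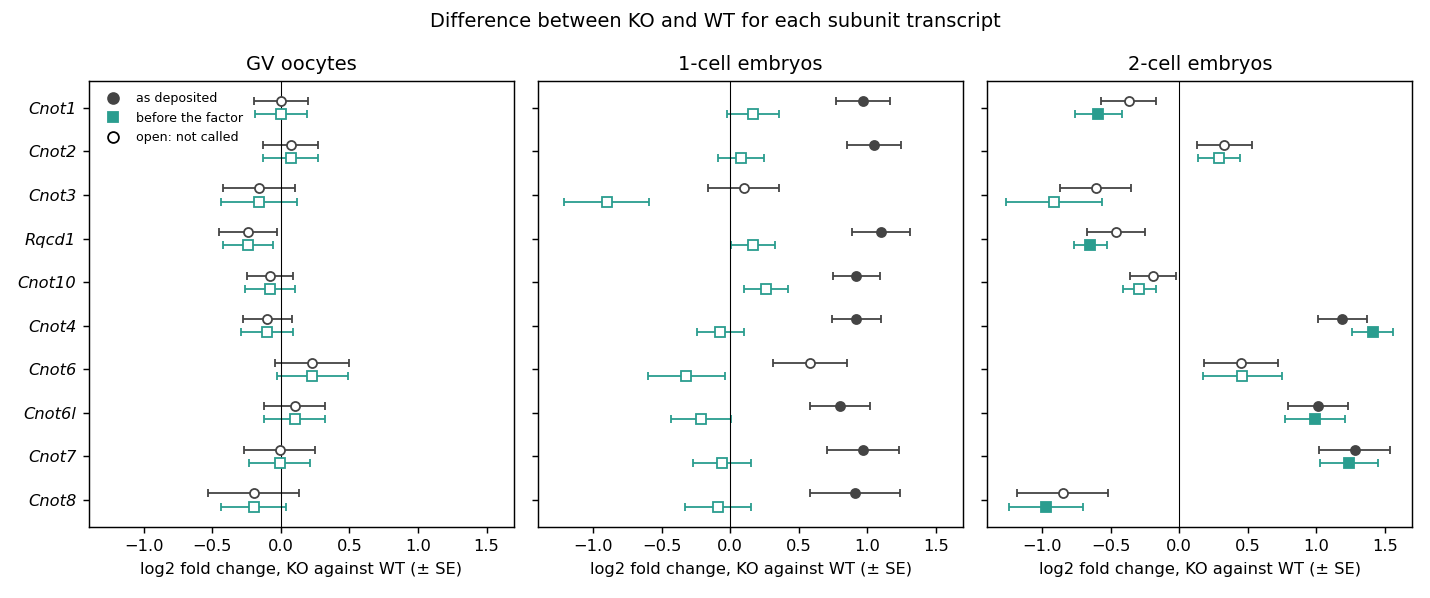
Log2 fold change of KO against WT for each subunit transcript in GV oocytes, 1-cell and 2-cell embryos, with bars of 1 SE from limma. Circles are deposited values, squares are FPKM before the library factor, and filled symbols were called at an adjusted p under 0.05. At the 1-cell stage the circles sit near 1 and the squares near 0 except for Cnot3 (0.10 and -0.90) and Cnot6 (0.58 and -0.32), whereas at the 2-cell stage both symbols of a gene lie on the same side of 0.

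In 2-cell embryos some subunits had higher values in KO and others had lower ones, and on the deposited scale only higher ones were called. Called higher were 3 of 10 (7.56% of all genes), the ubiquitin ligase Cnot4 and the nucleases Cnot6l and Cnot7, and 0 of 10 were called lower on the deposited scale (19.6% of all genes were called in either direction), with Cnot3 and Cnot8 at an unadjusted p under 0.05. Cnot4 was at 1.928 and 2.28 FPKM in WT and at 5.24 and 7.028 FPKM in KO embryos, 2.92 times the WT mean (log2 fold change 1.19 ± 0.18, limma adjusted p = 0.0015). Cnot7 was at 22.73 and 16.76 FPKM in WT and at 45.91 and 51.71 FPKM in KO, a ratio of means of 2.47 (1.28 ± 0.26, limma adjusted p = 0.00801). Cnot6l was at 11.13 and 13.28 FPKM in WT and at 23.35 and 27.76 FPKM in KO, a ratio of means of 2.09 (1.01 ± 0.22, limma adjusted p = 0.0116). In these 3 genes, and in Cnot2 and Cnot6, both KO libraries lay above both WT libraries, as in 18.8% of all genes. The shares over all genes include genes at the floor, 5121 to 6561 in each library of this stage. Of the 10 members only Cnot10 had values there. The median of the 10 was 0.07 and that of the 3949 genes above the floor was 0.09.

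Cnot8, the paralogue of Cnot7, ran the other way at this stage. It was at 18.92 and 21.79 FPKM in WT and at 11.14 and 10.49 FPKM in KO embryos, so that the WT mean was 1.88 times the KO mean (-0.85 ± 0.33, limma adjusted p = 0.123). Cnot3 was at 3.373 and 2.467 FPKM in WT against 1.624 and 1.495 FPKM in KO (-0.61 ± 0.26, limma adjusted p = 0.159). Rqcd1 was at 3.404 and 4.402 FPKM against 2.615 and 2.5 FPKM (-0.46 ± 0.21, limma adjusted p = 0.193), and Cnot1 was at 1.875 and 2.842 FPKM against 1.726 and 1.436 FPKM (-0.37 ± 0.20, limma adjusted p = 0.301). In these 4 genes and in Cnot10 both KO libraries were below both WT libraries, as in 24.7% of all genes. None of them was called on this scale. Cnot10 was at 1.303 and 1.271 FPKM in WT and at the floor in both KO libraries. Cnot2 (7.829 and 7.175 FPKM in WT, 9.142 and 10.29 FPKM in KO) and Cnot6 (3.26 and 5.193 FPKM in WT, 6.62 and 5.436 FPKM in KO) were higher in both KO libraries without being called (0.33 ± 0.20 and 0.45 ± 0.27).

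Before the library factor the same 3 transcripts were called higher at the 2-cell stage (11.1% of all genes) and 3 others were called lower (18.7% of all genes). Cnot4 gave 1.41 ± 0.15 (limma adjusted p = 0.0005), Cnot7 1.24 ± 0.21 (0.00437) and Cnot6l 0.99 ± 0.22 (0.0146). Lower were Cnot8, at 162.8 and 177.5 FPKM in WT and 85.52 and 86.53 FPKM in KO (-0.97 ± 0.27, limma adjusted p = 0.0313), and Rqcd1, at 29.3 and 35.87 FPKM against 20.07 and 20.63 FPKM (-0.65 ± 0.12, limma adjusted p = 0.00598). The third was the scaffold Cnot1, at 16.13 and 23.15 FPKM in WT and 13.24 and 11.85 FPKM in KO (-0.59 ± 0.17, limma adjusted p = 0.0369). Over the 10 members the median was 0.00, against 0.05 over genes above the floor. The factors of the 4 libraries of this stage lay between 0.116 and 0.130, and ratios of means differed little between the scales: the WT mean of Cnot8 was 1.88 times the KO mean as deposited and 1.98 times before the factor, and that of Cnot1 was 1.49 and 1.57 times. Log2 fold changes of low transcripts differed more, since the added 1 FPKM weighs less before the factor and the floor is higher there.

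The 2-cell calls differed in how far they rested on single libraries. Cnot4 on both scales, and Cnot7 and Rqcd1 before the factor, were called without any 1 of the 4 libraries. On the deposited scale the Cnot6l call was lost without KO replicate 2 (0.89, limma adjusted p = 0.087) or WT replicate 1 (0.89, 0.0899), and the Cnot7 call without KO replicate 2 (1.19, 0.0631) or WT replicate 2 (1.07, 0.0892). Before the factor the Cnot8 call was lost without each of the 4 libraries in turn (limma adjusted p = 0.0831 to 0.127). The Cnot1 call was lost without KO replicate 1 (0.075), KO replicate 2 (0.159) or WT replicate 2 (0.115), and the Cnot6l call without KO replicate 2 (0.0818) or WT replicate 1 (0.0714). With only the 4 libraries of this stage in the limma fit, 0 of 10 were called higher (Cnot4, adjusted p = 0.0611) and Cnot8 (0.0495) and Cnot10 (0.028) were called lower, with 7 of 10 at an unadjusted p under 0.05. Both KO values of Cnot10 were at the floor and so show no spread. The share of all genes called in that fit is not given here, so these counts cannot be set beside it. Oocyte marker transcripts were also higher in KO 2-cell embryos: the 10 markers summed to 1074 to 1159 FPKM against 427.3 to 429.9 FPKM in WT. On the deposited scale 5 of 10 were called higher (7.56% of all genes) and 0 lower. Before the factor 6 of 10 were called higher (11.1% of all genes) and 0 lower. The part that these higher oocyte markers play in the subunit levels was not tested.

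The balance within the paralogue pairs does not depend on the library factor, since both genes share it. Cnot7 made up 64.2% ± 2.86 (SD, n = 2) of the summed FPKM of Cnot7 and Cnot8 in WT GV oocytes and 67.2% ± 0.201 in KO GV oocytes. It was 77.2% ± 4.56 in WT and 77.3% ± 8.03 in KO 1-cell embryos. In 2-cell embryos the share was 54.6% and 43.5% in the WT libraries and 80.5% and 83.1% in the KO libraries. WT 2-cell libraries thus held about equal FPKM of both transcripts, and KO 2-cell libraries held mostly Cnot7, with no overlap between the groups. Cnot6l made up 91.6% ± 0.88 of the pair Cnot6l and Cnot6 in WT GV oocytes and 91.2% ± 0.707 in WT 1-cell embryos. At the 2-cell stage its share was 77.3% and 71.9% in WT and 77.9% and 83.6% in KO, the lowest KO value lying just above the highest WT value. No test is given for these shares, as an exact two-sided permutation test of 2 libraries against 2 cannot give a p under 0.333.

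**Figure D3:**
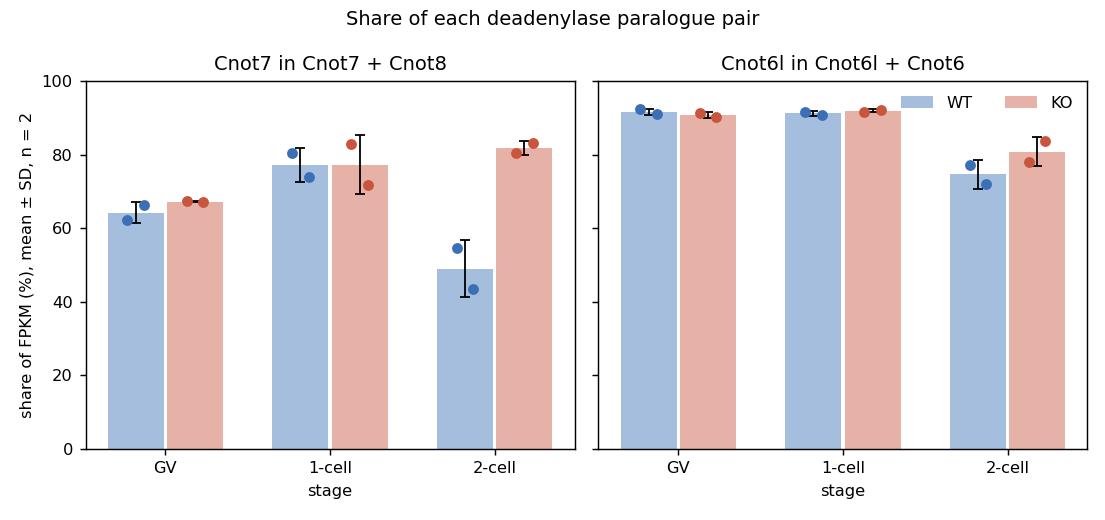
Share of FPKM (%) of Cnot7 in the pair Cnot7 and Cnot8, and of Cnot6l in the pair Cnot6l and Cnot6, by stage and genotype. Bars are means, error bars are 1 SD (n = 2) and points are libraries. The Cnot7 share in 2-cell embryos is 49.0% in WT and 81.8% in KO, the widest gap between genotypes in the plot.

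Within the complex the same shift shows in each transcript's share of the 10 members' summed FPKM. In WT 2-cell embryos Cnot8 made up 26.6% ± 2.24 (SD, n = 2) and Cnot7 25.8% ± 5.92 of the sum. In KO 2-cell embryos Cnot8 made up 9.54% ± 1.04 and Cnot7 42.9% ± 0.736. Cnot6l held 15.9% ± 1.73 in WT and 22.4% ± 1.24 in KO, and Cnot4 2.74% ± 0.282 and 5.37% ± 0.752. Shares of the scaffold Cnot1 (3.07% ± 0.845 and 1.40% ± 0.273), Cnot3 (3.82% ± 0.896 and 1.38% ± 0.173) and Rqcd1 (5.09% ± 0.842 and 2.26% ± 0.222) were smaller in KO. The sum itself was 75.76 and 77.46 FPKM in WT and 108.4 and 119.1 FPKM in KO 2-cell embryos. Shares of 1 sum are tied to each other, so a higher share of Cnot7 lowers the others.

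From the GV oocyte to the WT 1-cell embryo 9 of 10 subunit transcripts fell on the deposited scale, as did 85.8% of all genes. The fall was largest for Cnot10, from 24.35 and 18.21 FPKM to 1.08 FPKM and the floor, and for Cnot1 (-2.46 ± 0.20, limma adjusted p = 2.69e-06). It was smaller for Cnot6l (-1.09 ± 0.22) and Cnot7 (-1.09 ± 0.26), and Cnot3 did not pass the test (-0.44 ± 0.26, limma adjusted p = 0.138). The median of the 10 was -1.73, against -1.91 over the 6245 genes above the floor. The Cnot6 call was lost without WT 1-cell replicate 2 (limma adjusted p = 0.0655) or WT GV replicate 2 (0.111).

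Before the library factor, 5 of the 10 were higher in WT 1-cell embryos than in oocytes (12.3% of all genes) and 3 were lower (27.9% of all genes). The higher ones included 3 of the 4 nucleases: Cnot7, from 186.3 and 183.8 to 420.8 and 310.9 FPKM (0.96 ± 0.21, limma adjusted p = 0.00371), Cnot6l, from 90.57 and 111.5 to 198.9 and 190.2 FPKM (0.95 ± 0.22, limma adjusted p = 0.00437), and Cnot6 (0.96 ± 0.28, limma adjusted p = 0.0183). Cnot3 (1.56 ± 0.31) and Cnot4 (0.53 ± 0.17) were the others, and Cnot8 was not called (0.04 ± 0.24). Lower were Cnot10 (-1.95 ± 0.16), Cnot1 (-0.73 ± 0.19) and Rqcd1 (-0.46 ± 0.16), which belong to the scaffold and its docking partners. Both WT 1-cell values of Cnot10 were set to the floor of this comparison, 4.709 FPKM, so the size of its fall is set by that floor. Over the 10 members the median was 0.28, against -0.09 over genes above the floor. Within WT 1-cell libraries, then, 3 of the 4 nuclease transcripts, with Cnot3 and Cnot4, took a larger place than in oocytes, and the scaffold's took a smaller one. This did not hold for all of them at the WT 2-cell stage. There the mean before the factor was 101% of the GV mean for Cnot1. For the nucleases it was 89.7% (Cnot7), 101% (Cnot6l), 164% (Cnot8) and 378% (Cnot6). The calls of Cnot4 and Rqcd1 were lost without each of the 4 libraries in turn (limma adjusted p = 0.086 to 0.157 and 0.0999 to 0.188). The Cnot6 call was lost without WT 1-cell replicate 1 (0.0514), WT 1-cell replicate 2 (0.0849) or WT GV replicate 1 (0.144), and the Cnot1 call without WT 1-cell replicate 2 (0.0669) or WT GV replicate 2 (0.0601).

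**Figure D4:**
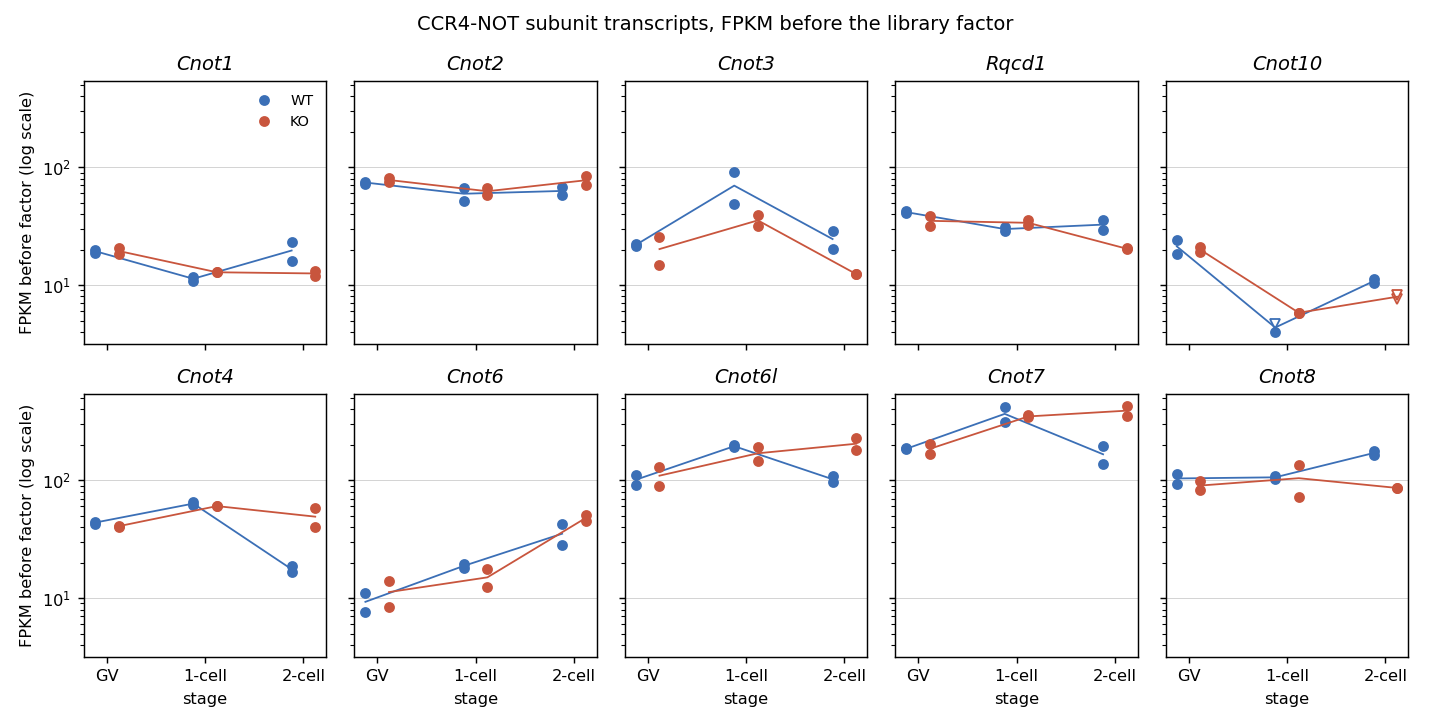
FPKM before the library factor (log scale) of each subunit transcript at the GV, 1-cell and 2-cell stages. Points are libraries (WT blue, KO red), lines join means of 2 libraries and open triangles are values at the floor. Cnot4, Cnot6l and Cnot7 peak at the 1-cell stage in WT, and in KO 2-cell embryos they are above the WT libraries.

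From the 1-cell to the 2-cell stage in WT embryos, 6 of 10 fell on the deposited scale (29.0% of all genes), namely Cnot2, Cnot3, Cnot4, Cnot6l, Cnot7 and Rqcd1. Cnot4 fell from 16.53 and 13.88 to 1.928 and 2.28 FPKM (-2.38 ± 0.18, limma adjusted p = 1.28e-05), Cnot3 by -2.12 ± 0.26, Cnot7 by -2.09 ± 0.26 and Cnot6l by -1.85 ± 0.22 on the log2 scale. Cnot8 (-0.30 ± 0.33), Cnot6 (-0.09 ± 0.27), Cnot1 (-0.16 ± 0.20) and Cnot10 (0.16 ± 0.17) were not called. For all 10 the median was -0.79, against -0.67 over the 4551 genes above the floor. The Rqcd1 call was lost without WT 2-cell replicate 1 (limma adjusted p = 0.125) or WT 1-cell replicate 1 (0.139), and the Cnot2 call without WT 2-cell replicate 2 (0.0646).

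The falls of 4 of these transcripts were also called before the factor (14.9% of all genes were lower): Cnot4 (-1.79 ± 0.15), Cnot3 (-1.42 ± 0.35), Cnot7 (-1.14 ± 0.21) and Cnot6l (-0.93 ± 0.22). The scaffold Cnot1 was higher, from 11.79 and 10.83 to 16.13 and 23.15 FPKM (0.73 ± 0.17, limma adjusted p = 0.0131; 21.0% of all genes were higher). Cnot8 went from 102.4 and 109.4 to 162.8 and 177.5 FPKM and Cnot6 from 18.01 and 19.51 to 28.06 and 42.31 FPKM, and neither was called (limma adjusted p = 0.1 and 0.0647). Both nuclease pairs therefore held 1 transcript that fell and 1 that was not called at this step. Cnot6l was no longer called without WT 2-cell replicate 1 (0.0749), WT 1-cell replicate 1 (0.0754) or WT 1-cell replicate 2 (0.0594). Cnot3 was not called without WT 2-cell replicate 2 (0.101) or WT 1-cell replicate 2 (0.0914), and Cnot1 was not called without WT 1-cell replicate 2 (0.0734).

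The same steps were taken in the KO libraries. On the deposited scale 6 of 10 fell from KO GV oocytes to KO 1-cell embryos (66.9% of all genes), Cnot1, Cnot2, Cnot4, Cnot8, Cnot10 and Rqcd1, whereas Cnot7 (-0.11 ± 0.26) and Cnot6l (-0.39 ± 0.22) were not called. From the 1-cell to the 2-cell stage 9 of 10 fell (60.7% of all genes), among them Cnot8, from 31.45 and 74.71 to 11.14 and 10.49 FPKM (-2.07 ± 0.33), and Cnot7, from 153.2 and 188.4 to 45.91 and 51.71 FPKM (-1.78 ± 0.26). The exception was Cnot6 (-0.23 ± 0.27). Medians of the 10 were -0.71 and -1.71 for these steps, against -0.90 and -1.64 over genes above the floor. At the first step, the Cnot4 call was lost without KO 1-cell replicate 1 (limma adjusted p = 0.248), KO GV replicate 1 (0.0999) or KO GV replicate 2 (0.127), and the Cnot8 call without the same libraries (0.316, 0.193 and 0.0923).

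Before the factor, 4 of 10 were higher in KO 1-cell embryos than in KO oocytes (13.2% of all genes), Cnot3, Cnot4, Cnot6l and Cnot7, and 2 were lower (26.4%), Cnot1 and Cnot10. Cnot7 (0.92 ± 0.22) and Cnot10 (-1.61 ± 0.19) kept their calls without any 1 of the 4 libraries. The calls of Cnot1 and Cnot4 were lost without each of the 4 in turn (limma adjusted p = 0.0547 to 0.148 and 0.0781 to 0.116). Those of Cnot3 and Cnot6l were lost without KO 1-cell replicate 1 (0.154 and 0.219) or KO GV replicate 1 (0.339 and 0.324). From the KO 1-cell to the KO 2-cell stage 1 was higher (10.9% of all genes), Cnot6, from 17.54 and 12.45 to 50.81 and 44.84 FPKM (1.63 ± 0.28, limma adjusted p = 0.0025). Lower were Cnot3 (-1.43 ± 0.33) and Rqcd1 (-0.70 ± 0.14), 2 of 10 against 16.7% of all genes, and Cnot3 was not called without KO 1-cell replicate 1 (limma adjusted p = 0.0587). Cnot4 (-0.32 ± 0.16), Cnot6l (0.27 ± 0.22) and Cnot7 (0.16 ± 0.21), which fell at this step in WT, were not called in KO.

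The difference between the genotypes' changes was itself tested. For the step from GV oocyte to 1-cell embryo, 5 of 10 fell less in KO on the deposited scale (38.7% of all genes), Cnot1, Cnot2, Cnot4, Cnot10 and Rqcd1. Before the factor 0 of 10 differed at that step (4.86% of all genes), with 0 at an unadjusted p under 0.05. For the step from the 1-cell to the 2-cell stage, 3 of 10 had a more positive change in KO before the factor (5.91% of all genes): Cnot4 (1.48 ± 0.22, limma adjusted p = 0.00317), Cnot7 (1.30 ± 0.30, 0.0236) and Cnot6l (1.20 ± 0.32, 0.0368). Rqcd1 had a more negative change (-0.82 ± 0.17, limma adjusted p = 0.0146; 15.8% of all genes). Cnot4 was called without any 1 of the 8 libraries. The Cnot6l call was lost without any 1 of 6 of them (limma adjusted p = 0.0647 to 0.115), the Cnot7 call without any 1 of 5 (0.0501 to 0.0737), and the Rqcd1 call without KO 1-cell replicate 2 (0.0534) or WT 1-cell replicate 2 (0.0552). On the deposited scale, where the 1-cell factors of WT and KO differ, the same 3 genes gave 0.28 ± 0.25, 0.31 ± 0.37 and 0.20 ± 0.31 and were not called. There, 4 of 10 had a more negative change in KO (35.7% of all genes): Cnot8 (-1.76 ± 0.47), Rqcd1 (-1.56 ± 0.29), Cnot1 (-1.34 ± 0.28) and Cnot10 (-1.11 ± 0.23). Of these, the Cnot8 call was lost without any 1 of 5 libraries (limma adjusted p = 0.0557 to 0.0893). These tests share the 1-cell and 2-cell libraries with the comparisons above and are not separate evidence for them.

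Genes whose deposited levels ran most like those of the nucleases over the 12 libraries are given as a description, since all values share the library factors. Over the 5537 genes that averaged 5 FPKM or more, Cnot7 was most like Trappc2 (Pearson r = 0.994), Sytl4 (0.993) and Arl6 (0.992). Trappc2 had means of 11.1 FPKM in WT and 38.1 FPKM in KO 2-cell embryos. Cnot6l was most like Ranbp9 (0.997), Celf2 (0.996) and Mthfs (0.995). Cnot8 was most like Arhgap1 (0.995), Spint2 (0.994) and Angel1 (0.993), and Spint2 had means of 5.86 FPKM in WT and 2.32 FPKM in KO 2-cell embryos. Cnot6 was most like Eml5 (0.970), Tmem65 (0.965) and Ppp4r2 (0.959).

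Transcripts of the proteins that bring CCR4-NOT to its targets were measured in the same libraries. In 2-cell embryos 2 of 24 recruiters and adaptors were higher in KO (7.56% of all genes) and 2 were lower on the deposited scale, where 19.6% of all genes were called in either direction. The median log2 fold change of the 24 was 0.00. Dazl, an RNA-binding protein of germ cells, was at 8.675 and 9.561 FPKM in WT and at 54.83 and 77.91 FPKM in KO (2.72 ± 0.23, limma adjusted p = 5.27e-05). Btg4, the adaptor that links CNOT7 and CNOT8 to maternal mRNAs, was at 256.4 and 199.8 FPKM in WT and at 650.3 and 611.7 FPKM in KO (1.47 ± 0.23, limma adjusted p = 0.00202). Tob2, another adaptor of the same protein family, was lower (-0.94 ± 0.22, limma adjusted p = 0.0165). Before the factor, 4 of the 24 were higher in KO 2-cell embryos (11.1% of all genes) and 5 were lower (18.7% of all genes). At the 1-cell stage 14 of 24 were higher (52.7% of all genes) and 1, Pabpn1l itself, was lower on the deposited scale. Before the factor 3 were higher and 2, Pabpn1l again among them, were lower (10.9% of all genes in either direction). Tob1 (1.85 on the log2 scale) and Tob2 (1.74) had the largest deposited increases there.

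Enzymes that act beside or after CCR4-NOT moved in both directions. On the deposited scale, 52.7% of all genes were higher in KO at the 1-cell stage and 7.56% at the 2-cell stage, the shares beside which the counts of these lists stand. In either direction, 19.6% of all genes were called at the 2-cell stage on the deposited scale, and 10.9% at the 1-cell stage before the factor. At the 2-cell stage before the factor, 11.1% of all genes were higher and 18.7% lower. Of 8 other deadenylases, 6 were higher in KO 1-cell embryos, led by Parn (1.41), and 0 were called before the factor. In 2-cell embryos 2 of the 8 were higher, Ccrn4l (0.82 ± 0.22) and Pan3 (0.68 ± 0.19), the regulatory subunit of another deadenylase. In the same embryos 1 was lower, Pnldc1 (-0.80 ± 0.20). Before the factor 2 of the 8 were higher and 3 lower at that stage. Of 8 poly(A)-binding proteins and their partners, 5 were higher and 1, Pabpn1l itself, was lower at the 1-cell stage. Before the factor 1, Paip2, was higher there (3.31 ± 0.17, and 4.24 ± 0.19 as deposited), and 1, again Pabpn1l, was lower. At the 2-cell stage 2 were higher and 3 lower, as deposited and also before the factor. Pabpc1, the general cytoplasmic poly(A)-binding protein, gave -1.76 ± 0.26 in 2-cell embryos and Pabpn1, its nuclear counterpart, -1.38 ± 0.24. Paip1 was among the higher ones at that stage (1.20 ± 0.23). Of 15 decapping and 5′ to 3′ decay genes, 12 were higher and 0 lower in KO 1-cell embryos (2 and 1 before the factor). In KO 2-cell embryos 2 were higher and 1 lower, as deposited and also before the factor. Lsm5 (4.20 ± 0.33) and Lsm4 (1.22 ± 0.23) were the higher ones at the 2-cell stage and Lsm2 (-1.70 ± 0.20) the lower one, all of them members of the Lsm ring family.

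The partner of CNOT10 was present under an older name and was looked up after its values had been seen. D1Bwg0212e is a RefSeq synonym of Cnot11. It was at 9.997 and 10.27 FPKM in WT and at 39.73 and 51.67 FPKM in KO 1-cell embryos (2.06 ± 0.20, limma adjusted p = 0.000122; 1.11 ± 0.22 before the factor, limma adjusted p = 0.00836). In 2-cell embryos it was at 1.055 FPKM and the floor in WT and at 2.654 and 3.826 FPKM in KO (1.05 ± 0.20, limma adjusted p = 0.00588). Before the factor it gave 1.42 ± 0.23 at that stage (limma adjusted p = 0.00323). Its partner Cnot10 was called higher in KO 1-cell embryos on the deposited scale (0.92 ± 0.17, limma adjusted p = 0.00224), and at the 2-cell stage, at the floor in both KO libraries, it was not called.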

How the data were processed

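Polyadenylated RNA of 12 libraries was measured. The authors deposited 1 table of FPKM values, per the file headers, and the submitters' processing notes name TopHat2 2.1.1, Cufflinks 2.2.1 and the build mm9. The table held 11298 complete entries and 0 ERCC entries, and 1 last entry with 1 of 12 values was left out. No value was below 1 FPKM. In the 8 embryo columns 100% of values above this floor were 6-digit FPKM values times 1 library factor (tolerance 0.01 of the last digit). FPKM before the library factor are the deposited values divided by it, with the highest floor of a contrast's libraries applied to all of them. FPKM carry no counts, so the depth of the libraries is unknown.

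Values were analysed as log2(FPKM + 1), which understates the change of low genes, in 1 limma 3.58.1 fit (R 4.3.3) of all 12 libraries with an intensity trend. P-values were two-sided and adjusted by the Benjamini-Hochberg method over all genes of a contrast, with calls made below an adjusted p of 0.05. Values after ± are SEs beside log2 fold changes. All 10 members were named whatever their values. For each nuclease the 3 genes of highest Pearson r were named, and of each partner list at most the 3 with the largest difference. The members and lists were chosen with earlier results of these data known. Alternatives were other scalings, a pseudocount of 0.1, a mean of at least 5 FPKM, fits of the contrast's libraries alone, a replicate block and leaving out each library. Leaving out libraries before the library factor was added after seeing the data.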

Additional observations from a re-analysis of the deposited data

Results flagged for a closer look

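The following values are here because the change between 2 stages differed between KO and WT in a limma test of that difference (KO change minus WT change, log2 scale, adjusted p under 0.05). From GV oocytes to 1-cell embryos on the deposited scale they were 0.97 for Cnot1, 0.98 for Cnot2, 1.01 for Cnot4, 1.00 for Cnot10 and 1.34 for Rqcd1, 5 of 10 members against 38.7% of all genes. Before the library factor 0 of 10 were called for this step, and 0 had an unadjusted p under 0.05. The calls of the deposited scale were lost without single libraries for Cnot1 and Cnot2 (5 and 6 of the 8 libraries in turn), and without WT 1-cell replicate 2 for Cnot4 (0.90, limma adjusted p = 0.0612) and Cnot10 (0.97, 0.0511).

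From the 1-cell to the 2-cell stage on the deposited scale the differences were -1.34 for Cnot1, -1.76 for Cnot8, -1.11 for Cnot10 and -1.56 for Rqcd1. The Cnot8 value lost its call without any of 5 of the 8 libraries (limma adjusted p = 0.0557 to 0.0893). Before the library factor they were 1.48 for Cnot4, 1.20 for Cnot6l, 1.30 for Cnot7 and -0.82 for Rqcd1. The Cnot6l call was lost without any of 6 of the 8 libraries (0.0647 to 0.115), the Cnot7 call without any of 5 (0.0501 to 0.0737), and the Rqcd1 call without KO 1-cell replicate 2 (0.0534) or WT 1-cell replicate 2 (0.0552). The library factors of the 1-cell stage differ between genotypes, and their basis was not tested.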

How the results depend on the processing

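Counts below are members called in limma fits, and other values are log2 fold changes whose sign turned. What sets the library factor was not tested, and without it the 1-cell calls are lost. Turned signs were looked for only in members called on the deposited scale or before the factor. For KO against WT at the 2-cell stage these were Cnot1, Cnot4, Cnot6l, Cnot7, Cnot8 and Rqcd1, and their fold changes turned sign under no alternative run.

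On FPKM before the library factor, KO against WT in 1-cell embryos called 0 higher and gave -0.07 for Cnot4, -0.21 for Cnot6l, -0.06 for Cnot7 and -0.09 for Cnot8; KO against WT in 2-cell embryos called 3 lower. WT 1-cell against WT GV called 5 higher and 3 lower and gave 1.56 for Cnot3, 0.53 for Cnot4, 0.96 for Cnot6, 0.95 for Cnot6l, 0.96 for Cnot7 and 0.04 for Cnot8; WT 2-cell against WT 1-cell called 1 higher and gave 0.73 for Cnot1, 0.09 for Cnot2 and 0.11 for Rqcd1. KO 1-cell against KO GV called 4 higher and 2 lower and gave 0.82 for Cnot3, 0.56 for Cnot4, 0.64 for Cnot6l, 0.92 for Cnot7 and 0.14 for Cnot8; KO 2-cell against KO 1-cell called 1 higher and 2 lower and gave 0.30 for Cnot2, 1.63 for Cnot6, 0.27 for Cnot6l and 0.16 for Cnot7. The KO minus WT difference of the GV to 1-cell change called 0 higher; the KO minus WT difference of the 1-cell to 2-cell change called 3 higher and 1 lower. With median-ratio size factors, KO against WT in 1-cell embryos called 0 higher and gave -0.12 for Cnot4, -0.26 for Cnot6l, -0.11 for Cnot7 and -0.14 for Cnot8; KO against WT in 2-cell embryos called 3 lower. WT 1-cell against WT GV called 5 higher and 3 lower and gave 1.48 for Cnot3, 0.50 for Cnot4, 0.83 for Cnot6, 0.92 for Cnot6l, 0.95 for Cnot7 and 0.03 for Cnot8; WT 2-cell against WT 1-cell called 1 higher and gave 0.65 for Cnot1, 0.08 for Cnot2 and 0.11 for Rqcd1. KO 1-cell against KO GV called 2 higher and 2 lower and gave 0.69 for Cnot3, 0.46 for Cnot4, 0.55 for Cnot6l, 0.83 for Cnot7 and 0.06 for Cnot8; KO 2-cell against KO 1-cell called 1 higher and 2 lower and gave 0.02 for Cnot1, 0.35 for Cnot2, 1.56 for Cnot6, 0.33 for Cnot6l and 0.21 for Cnot7. The KO minus WT difference of the GV to 1-cell change called 0 higher and gave -0.06 for Cnot2 and -0.04 for Cnot4; the KO minus WT difference of the 1-cell to 2-cell change called 3 higher and 1 lower. With quantile normalization, KO against WT in 1-cell embryos called 0 higher and 1 lower and gave -0.08 for Cnot2, -0.22 for Cnot4, -0.41 for Cnot6l, -0.25 for Cnot7 and -0.30 for Cnot8; KO against WT in 2-cell embryos called 2 lower. WT 1-cell against WT GV called 6 higher and 1 lower and gave 0.19 for Cnot2, 1.92 for Cnot3, 0.97 for Cnot4, 1.15 for Cnot6, 1.44 for Cnot6l, 1.46 for Cnot7, 0.62 for Cnot8 and 0.02 for Rqcd1; WT 2-cell against WT 1-cell called 2 higher and gave 0.36 for Cnot1 and 0.01 for Cnot2. KO 1-cell against KO GV called 4 higher and 1 lower and gave 0.04 for Cnot2, 0.97 for Cnot3, 0.81 for Cnot4, 0.96 for Cnot6l, 1.23 for Cnot7, 0.50 for Cnot8 and 0.25 for Rqcd1; KO 2-cell against KO 1-cell called 2 higher and 3 lower and gave 0.23 for Cnot1, 0.48 for Cnot2, 1.66 for Cnot6, 0.41 for Cnot6l and 0.34 for Cnot7. The KO minus WT difference of the GV to 1-cell change called 0 higher and gave -0.02 for Cnot1, -0.15 for Cnot2 and -0.16 for Cnot4; the KO minus WT difference of the 1-cell to 2-cell change called 4 higher and 1 lower. With only the libraries of the contrast, KO against WT in 1-cell embryos called 0 higher; KO against WT in 2-cell embryos called 0 higher and 2 lower. WT 2-cell against WT 1-cell called 1 higher; the KO minus WT difference of the GV to 1-cell change called 2 higher. With a mean of at least 5 FPKM, KO against WT in 2-cell embryos called 1 lower.

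With 1 library left out, counts called and log2 fold changes had these ranges. They were 5 to 8 higher for KO against WT in 1-cell embryos, 0 to 1 lower for KO against WT in 1-cell embryos before the factor, 1 to 3 higher for KO against WT in 2-cell embryos, 1 to 2 lower for KO against WT in 2-cell embryos before the factor. Further ranges were 3 to 4 higher and 1 to 2 lower for WT 1-cell against WT GV before the factor, -0.37 to 0.05 (Cnot1) for WT 2-cell against WT 1-cell, 0 to 2 higher and 2 to 3 lower for WT 2-cell against WT 1-cell before the factor, -0.54 to 0.19 (Cnot3) and -0.26 to 0.03 (Cnot7) for KO 1-cell against KO GV. The last were 1 to 3 higher and 1 lower for KO 1-cell against KO GV before the factor, 1 to 6 higher for the KO minus WT difference of the GV to 1-cell change, -0.07 to 0.70 (Cnot7) for the KO minus WT difference of the 1-cell to 2-cell change, 1 to 3 higher and 0 to 2 lower for the KO minus WT difference of the 1-cell to 2-cell change before the factor. Where a group kept 1 library, it is assumed to vary like the other groups.

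The replicate numbers pair nothing in the labels, and correlations of replicate differences between groups ran from -0.61 to 0.38. With the replicate block, KO against WT at the 1-cell stage called 7 of 10 members higher (Cnot8 was lost, adjusted p = 0.0592) and KO 1-cell against KO GV 4 lower (Cnot4 and Cnot8 were lost, 0.0591 and 0.0556), and no count moved past 1.5 times. Limits: 2 libraries a group, unknown depth, and a floor that hides levels under 1 FPKM, which touches Cnot10 in embryos. Before the library factor this floor is higher, up to 8.606 FPKM in WT 2-cell replicate 1. Of the named values, 640 were marked unchanged, 168 were no longer past the threshold, 19 passed it anew and 83 turned sign. For a fold change, unchanged means only that its sign and its call, or lack of one, were kept, whatever its size. Of the counts of members called, 225 were equal to the main count or within 1.5 times of it, and 77 moved further. The 640 include the paralogue shares, which have no direction or threshold and were compared with their own SD. For these, leaving out 1 of 2 libraries cannot move a share past its SD.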
